A study of Homo sapiens with 2 samples.

Results

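The genes described here are 9 genes of antigen presentation by MHC class I, namely HLA-B, HLA-C, HLA-E, HLA-F, B2M, TAP1, TAP2, TAPBP and NLRC5. They were taken by gene symbol from a table of 50868 genes, and each had 1 row in it. The rule used the symbols and no values, but the set was drawn up with earlier results of these data known. RNA of Molm13, an established human acute myeloid leukemia (AML) cell line, was sequenced with 1 library per group. The Vector library, which the labels also call OE-Control, came from control cells. The other library came from cells labelled as over-expressing UNC5B, a receptor of the axon guidance cue netrin-1 (OE-UNC5B). According to the methods, UNC5B was delivered by a lentivirus whose CMV promoter drives a FLAG-tagged UNC5B, in a plasmid that also carries mCherry and puromycin resistance, and infected cells were selected with puromycin. The methods do not say what the control vector carried, or whether the cells were a pool or a clone. Over all genes, 13715566 reads were counted for the former and 15637137 for the latter.

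UNC5B, the targeted gene, had 0 reads in either library, below a floor of 3 reads, which is 0.222 CPM (TMM-scaled reads per 1000000) for Vector and 0.189 CPM for the other. The values therefore do not show the over-expression, and whether transcripts of the construct would be counted as UNC5B was not tested, so the name used from here is the library labelled OE-UNC5B. Where a pair of values is given, the first is from Vector. The 9 markers of myeloid cells and AML all had reads in both libraries and summed to 73116 and 48075 reads. The monocyte marker CD14 had 4 and 5 reads. The granule genes LYZ, with 51742 and 23700 reads, and MPO, with 3363 and 1553, had more reads in Vector, and LYZ made up most of the sum there. The leukocyte antigen PTPRC, with 1592 and 3102 reads, the receptor FLT3, with 4067 and 6395, and CD33, with 1775 and 2299, were higher in the other library. Of the 8 of these markers that were tested, 4 had positive and 4 negative log2 fold changes. Markers of other cells summed to 68 and 104 reads for T cells, 4 and 12 for B cells, 194 and 313 for NK cells, all from NCAM1, 1 and 2 for endothelial cells, 5 and 2 for epithelial cells and 23 and 9 for fibroblasts. The part of these markers in the differences below was not tested.

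MHC class I molecules show peptides from inside the cell to CD8 T cells and to NK cells. Each is made of a polymorphic heavy chain, encoded by an HLA gene, and the invariant light chain beta2-microglobulin. Peptides cut by the proteasome enter the endoplasmic reticulum through the TAP transporter and are loaded onto the heavy chain with the help of tapasin and other chaperones, and NLRC5 is the transactivator that acts on the promoters of these genes with the RFX, CREB/ATF and NF-Y factors.

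The promoters of genes of this pathway are known for sites of those factors and of interferon and NF-kB factors, and sequence of 5 of them is given here because TAP1 and TAP2, whose products form 1 transporter, both had higher values in the library labelled OE-UNC5B, HLA-B was not past the test, and B2M and TAPBP were lower. Each is the 250 bases before the gene start in RefSeq (GRCh38.p14), written 5′ to 3′ on the strand of the gene. They are the reference alleles and not those of Molm13. Capitals mark matches, on either strand, to CCAAT, to TGACG (part of the CREB/ATF site), to GAAANNGAAA (a motif like the interferon-stimulated response element) or to the NF-kB consensus, and some neighbouring matches overlap.
HLA-B (chr6:31357180-31357429, minus strand): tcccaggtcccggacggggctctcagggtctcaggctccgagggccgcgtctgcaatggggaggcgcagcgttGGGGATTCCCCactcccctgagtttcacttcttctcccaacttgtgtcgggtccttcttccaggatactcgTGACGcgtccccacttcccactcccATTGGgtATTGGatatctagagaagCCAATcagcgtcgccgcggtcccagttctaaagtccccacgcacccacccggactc
B2M (chr15:44711267-44711516, plus strand): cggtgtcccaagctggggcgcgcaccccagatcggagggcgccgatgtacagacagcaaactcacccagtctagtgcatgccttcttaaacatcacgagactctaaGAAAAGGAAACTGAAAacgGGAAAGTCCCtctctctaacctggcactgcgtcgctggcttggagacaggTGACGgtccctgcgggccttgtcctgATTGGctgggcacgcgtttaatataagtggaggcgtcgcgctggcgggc
TAP1 (chr6:32853705-32853954, minus strand): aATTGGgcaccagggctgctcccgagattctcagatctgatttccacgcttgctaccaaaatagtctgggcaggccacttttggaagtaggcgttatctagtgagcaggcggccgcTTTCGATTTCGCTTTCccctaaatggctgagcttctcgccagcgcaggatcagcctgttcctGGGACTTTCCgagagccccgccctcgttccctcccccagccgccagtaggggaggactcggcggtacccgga
TAP2 (chr6:32838740-32838989, minus strand): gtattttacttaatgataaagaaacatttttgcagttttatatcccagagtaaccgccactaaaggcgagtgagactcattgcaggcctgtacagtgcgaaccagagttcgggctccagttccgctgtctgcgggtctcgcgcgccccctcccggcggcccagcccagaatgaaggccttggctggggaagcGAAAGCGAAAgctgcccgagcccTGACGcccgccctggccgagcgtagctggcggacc
TAPBP (chr6:33314079-33314328, minus strand): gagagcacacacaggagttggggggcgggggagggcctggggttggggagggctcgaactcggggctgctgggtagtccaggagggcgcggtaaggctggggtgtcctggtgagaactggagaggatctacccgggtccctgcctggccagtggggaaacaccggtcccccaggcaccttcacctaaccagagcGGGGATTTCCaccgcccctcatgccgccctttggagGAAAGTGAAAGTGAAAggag

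Promoter windows were at hand for 7 of the 9 genes, all but HLA-E and NLRC5. In the full window, which adds 50 bases after the start, CCAAT was found in 5 of the 7 genes and in 34.6% of all 35116 windows of 300 bases. TGACG was found in 4 of the 7 and in 24.6% of all windows, GAAANNGAAA in 5 of the 7 and in 3.57%, and the NF-kB consensus in 5 of the 7 and in 5.91%. The promoter of TAP1 held 2 overlapping matches to GAAANNGAAA at -134 to -125 and -128 to -119 bases from the start, and that of TAP2 held 1 at -58 to -49. B2M and TAPBP held 2 each, and HLA-B held 0. Only exact matches to this pattern were counted, so 0 matches do not show that such a site is absent. TAP1 has a second RefSeq start, whose window held none of the motifs. In the deposited loci, which include further transcripts, the windows of HLA-F, TAP1 and TAPBP lay inside the locus of the gene itself. The motifs were chosen after the sequences were seen, and a match describes letters and not a bound site.

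To compare the libraries, counts were scaled with TMM factors (0.984 and 1.02). Log2 fold changes are the library labelled OE-UNC5B against Vector, on counts with 0.5 reads added, so positive values are higher in the former. The read test is an exact binomial test of the reads, two-sided, adjusted by Benjamini-Hochberg over all genes with 10 or more reads in the sum of both libraries. No replicate check exists with 1 library per group. What the read test compares is this pair of libraries, not the conditions, and the 95% Clopper-Pearson intervals hold counting error alone. In bulk RNA, a smaller share of cells with a transcript and less of it per cell cannot be told apart.

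Of the 9 genes, 8 had at least 10 reads and were tested. At 2-fold with an adjusted p under 0.05, 0 were higher (3.4% of all tested genes were) and 0 were lower (3.38% of all). At 1.5-fold, 1 was higher, HLA-E (8.46% of all), and 0 were lower (8.18% of all). At any fold, 4 were higher, HLA-E, TAP1, TAP2 and HLA-C (22.8% of all), and 3 were lower, TAPBP, NLRC5 and B2M (24.2% of all). The read test passes smaller differences where reads are many. Each of the 8 had more reads in Vector than the median of tested genes, 269.5, and the shares of all genes were not matched for reads. The median log2 fold change of the 8 was 0.07, and that of all tested genes was -0.01. The middle 50% of all tested genes lay between -0.33 and 0.32, a range that held HLA-B, HLA-C, B2M and NLRC5 but not HLA-E, TAP1, TAP2 or TAPBP. The highest of the 8, HLA-E, lay above 88.5% of all tested genes, and the lowest, TAPBP, above 23.4%. With a coefficient of variation of 0.2 between libraries assumed in edgeR's exact test, 0 of the 8 were past an adjusted p of 0.05, and that of HLA-E was 0.869.

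**Figure D1:**
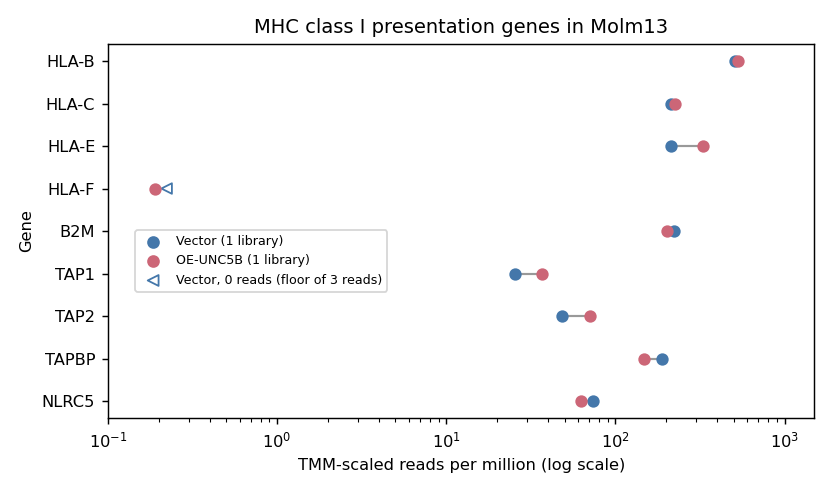
CPM (x axis, TMM-scaled reads, log scale) of the 9 genes (y axis) in the Vector library (blue) and the library labelled OE-UNC5B (red), 1 library each, with no error bars. HLA-E, TAP1 and TAP2 lie to the right of their Vector points and TAPBP to the left, and HLA-F is at or under the floor of 3 reads in both, drawn as an open triangle where it had 0 reads.

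The heavy chains HLA-B and HLA-C are classical class I molecules, which present peptides to CD8 T cells. HLA-B (ENSG00000234745) lies on the minus strand of chromosome 6 of GRCh38 from 31353872 to 31357188. It had 6871 and 8376 reads, or 509 and 527 CPM, the most of the 9 genes. Its log2 fold change was 0.05 (interval 0.00 to 0.10) and it did not pass the test (adjusted p = 0.0711, exact binomial read test). It was past the test with library totals, DESeq2 size factors or protein-coding genes alone, at log2 fold changes of 0.10, 0.05 and 0.06. HLA-C (ENSG00000204525), from 31268749 to 31272130 on the same strand, had 2869 and 3584 reads, or 213 and 225 CPM. It was 1.06-fold higher, with a log2 fold change of 0.08 (interval 0.01 to 0.16) and an adjusted p of 0.0412 in the exact binomial read test, which became 0.0584 without the filter on low counts. The level of both classical chains thus differed little between the libraries, with intervals that end at 0.10 and 0.16.

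HLA-E is a nonclassical heavy chain, which presents peptides from the leader sequences of other class I chains and is the ligand of the NK cell receptor CD94/NKG2A. HLA-E (ENSG00000204592), on the plus strand of chromosome 6 from 30489467 to 30494205, had 2854 and 5196 reads, or 212 and 327 CPM. It was 1.55-fold higher, with a log2 fold change of 0.63 (interval 0.56 to 0.69) and an adjusted p of 6.87e-79 in the exact binomial read test. In Vector the reads of HLA-E and HLA-C were nearly equal, and in the other library HLA-E stood above it. Set against the reads of HLA-B in the same library, which needs no scaling between libraries, HLA-E went from 41.5% to 62.0%, a log2 change of 0.58 (interval 0.50 to 0.66). HLA-C went from 41.8% to 42.8% of HLA-B, a log2 change of 0.04 (interval -0.05 to 0.12).

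HLA-F, a nonclassical chain known mostly from inside cells and from activated lymphocytes, was close to absent. HLA-F (ENSG00000204642), on the plus strand from 29722775 to 29738528, had 0 and 3 reads, both at or under the floor of 3 reads, so no fold is given. On the opposite strand its locus overlaps HLA-F-AS1, with 26 and 33 reads, RPL23AP1, with 17 and 5, and AL645939.2, with 0 and 1. The 4 heavy chain genes summed to 12594 and 17159 reads, a log2 fold change of 0.21 (interval 0.18 to 0.24). HLA-G, the class I chain of the placenta, had 1 and 0 reads.

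Class I genes are alike in sequence, so stretches shared with other genes were counted in the main transcripts of GENCODE 44. Of the 75-base stretches of a transcript, 0% were shared for HLA-B and HLA-F, 1.98% for HLA-C and 2.30% for HLA-E. The genes that shared them with HLA-C and HLA-E were other class I genes and pseudogenes. At 150 bases the share was 0% for each of the 4. B2M and NLRC5 shared 0% at 75 bases and TAPBP 1.72%. AL671883.2, which overlaps HLA-B, and AC023825.1 and AC023825.2, which overlap NLRC5, had 0 reads. The reference alleles stand for those of Molm13 in this count, and how the authors' counting treated reads that fit several genes is not given in the sources used here.

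B2M encodes beta2-microglobulin, the light chain without which heavy chains do not reach the surface. B2M (ENSG00000166710), on the plus strand of chromosome 15 from 44711477 to 44718877, had 2993 and 3202 reads, or 222 and 201 CPM. Its log2 fold change was -0.14 (interval -0.21 to -0.07, adjusted p = 0.000529, exact binomial read test), a difference of -9.17% on the linear scale. Against HLA-B within each library, B2M went from 43.6% to 38.2%, and HLA-E went from 95.4% to 162% of B2M. The light chain was thus lower and the sum of the heavy chains higher, both by small amounts. Most of the difference in the sum came from HLA-E (212 and 327 CPM), while HLA-B (509 and 527) and HLA-C (213 and 225) differed little.

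TAP1 and TAP2 are the subunits of the transporter that pumps peptides into the endoplasmic reticulum, and both had higher values in the library labelled OE-UNC5B. TAP1 (ENSG00000168394), on the minus strand of chromosome 6 from 32845209 to 32853978, had 346 and 581 reads, or 25.6 and 36.6 CPM. Its log2 fold change was 0.51 (interval 0.32 to 0.71, adjusted p = 7.26e-07, exact binomial read test), or 1.42-fold. TAP2 (ENSG00000204267), on the same strand from 32821833 to 32838780, had 656 and 1123 reads, or 48.6 and 70.7 CPM. It was 1.45-fold higher, with a log2 fold change of 0.54 (interval 0.40 to 0.68, adjusted p = 1.14e-13, exact binomial read test). The intervals of both genes span 1.5-fold, which is 0.58 on this scale, and TAP2 was past it with library totals. That of HLA-E (0.56 to 0.69), the gene called at 1.5-fold, spans it as well. Together they summed to 1002 and 1704 reads, a log2 fold change of 0.53 (interval 0.42 to 0.64).

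TAP1 and TAP2 lie in the class II region of the MHC near the immunoproteasome genes PSMB8 and PSMB9, and PSMB8 lies between them. PSMB9, an interferon-induced catalytic subunit, had 50 and 92 reads, a log2 fold change of 0.64 (adjusted p = 0.0262, exact binomial read test). PSMB8, another such subunit, had 980 and 1209 reads, a change of 0.07 that did not pass the test (adjusted p = 0.405, exact binomial read test). The antisense gene PSMB8-AS1, with 124 and 239 reads, was higher by 0.71 on the log2 scale. Of the genes around the transporter, PSMB8 thus did not pass the test, nor did HLA-DOB (204 and 283 reads, adjusted p = 0.138, exact binomial read test).

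PSMB9 and PSMB8-AS1 lie on the plus strand and their deposited loci overlap that of TAP1. Without strand, which the sources used here do not give for the counting, reads in the overlap cannot be told apart. On its own strand TAP2 overlaps the protein-coding gene AL669918.1, with 13 and 30 reads, which did not pass the test (adjusted p = 0.0897, exact binomial read test). Of the 75-base stretches of TAP2, 35.0% were shared with that gene or with TAP1, and with its reads added TAP2 changed by 0.55 (interval 0.41 to 0.69). For TAP1 0.23% of stretches were shared.

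**Figure D2:**
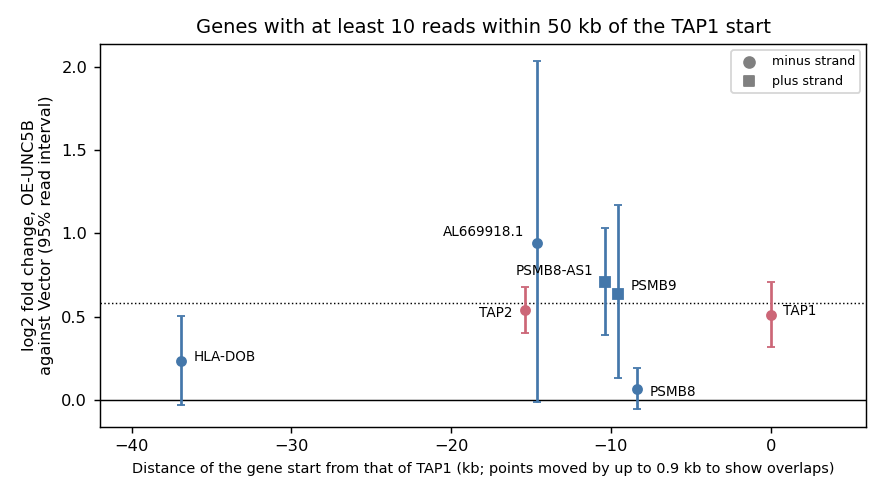
Log2 fold change with its 95% read interval (y axis) of the genes with at least 10 reads whose start lies within 50 kb of the start of TAP1 (x axis, kb), with TAP1 and TAP2 in red, other genes in blue, circles for the minus strand and squares for the plus strand. The dotted line is 1.5-fold. TAP1, TAP2, PSMB9 and PSMB8-AS1 lie between 0.51 and 0.71, PSMB8 at 0.07, and the interval of AL669918.1 starts just under 0.

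TAPBP encodes tapasin, which ties TAP to the empty heavy chain and edits the peptides it receives, and it was lower in the library labelled OE-UNC5B. TAPBP (ENSG00000231925), on the minus strand of chromosome 6 from 33299694 to 33314387, had 2525 and 2335 reads, or 187 and 147 CPM. Its log2 fold change was -0.35 (interval -0.43 to -0.27, adjusted p = 3.49e-16, exact binomial read test), a difference of -21.5%. TAPBP went from 36.7% to 27.9% of the reads of HLA-B. Tapasin and the transporter it binds thus differed in opposite directions.

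NLRC5 encodes the class I transactivator, and it was lower by a small amount. NLRC5 (ENSG00000140853), on the plus strand of chromosome 16 from 56989485 to 57083531, had 996 and 1000 reads, or 73.8 and 62.9 CPM. Its log2 fold change was -0.23 (interval -0.36 to -0.10, adjusted p = 0.0012, exact binomial read test), or a difference of -14.8%. The reads were nearly equal, so the difference comes with the scaling to library size. It was -0.23 with TMM or DESeq2 factors and -0.18 with library totals. The value nearest to no difference, -0.14, came with 1 added to the FPKM. Of the genes of its pathway described above, B2M and TAPBP were lower like NLRC5, and HLA-C, HLA-E, TAP1 and TAP2 were higher.

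**Figure D3:**
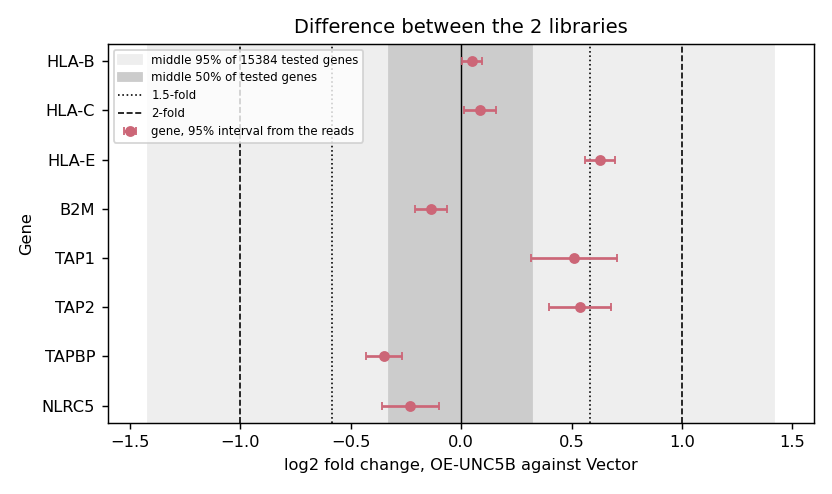
Log2 fold change (x axis) of the 8 tested genes (y axis), with 95% intervals from the reads of 1 library per group. The grey bands hold the middle 50% and 95% of all 15384 tested genes, and the dotted and dashed lines are 1.5-fold and 2-fold. HLA-E, TAP1 and TAP2 lie right of the inner band at 0.51 to 0.63, TAPBP lies left of it at -0.35, and the others lie inside it.

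The order of the levels depended on the gene length. The deposited FPKM, which are reads per kb of gene and per 1000000 counted reads, put the genes in Vector in the order HLA-B (87.6), HLA-E (52.6), HLA-C (35.1), TAPBP (21.2), B2M (17.1), TAP1 (4.6), TAP2 (4.42) and NLRC5 (3.04), with HLA-F at 0. In the library labelled OE-UNC5B the order was the same, with HLA-E at 84.0 FPKM and B2M at 16.1. The length behind the FPKM, computed from counts and FPKM, had a median ratio of 1.0 to the summed length of the distinct exons of all GENCODE 44 transcripts, in which overlapping exons count more than once, and of 1.49 to that of merged exons. It was within 5% of the former for 52.0% of 11284 genes with at least 50 reads, and above the length of the whole locus for 9.85% of them.

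For B2M that length was 12755 bases, where the locus has 7401, the merged exons have 3121 and the main transcript has 943. With the length of the main transcript, B2M came to 235 and 214 CPM per kb, and was next to HLA-B (332 and 343). HLA-C (138 and 146) and HLA-E (83.0 and 128) followed. B2M therefore ranked 5 by deposited FPKM and 2 by main transcript in both libraries, and HLA-E ranked 2 and 4. By merged exons B2M ranked 4 in both libraries, at 71.1 and 64.5 CPM per kb, and HLA-E ranked 3 in Vector and 2 in the other library. Fold changes between the libraries do not depend on the length. TAP1 and TAP2 were near each other by each measure, at 9.55 and 8.62 CPM per kb of main transcript in Vector, and their order cannot be told from 1 library.

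**Figure D4:**
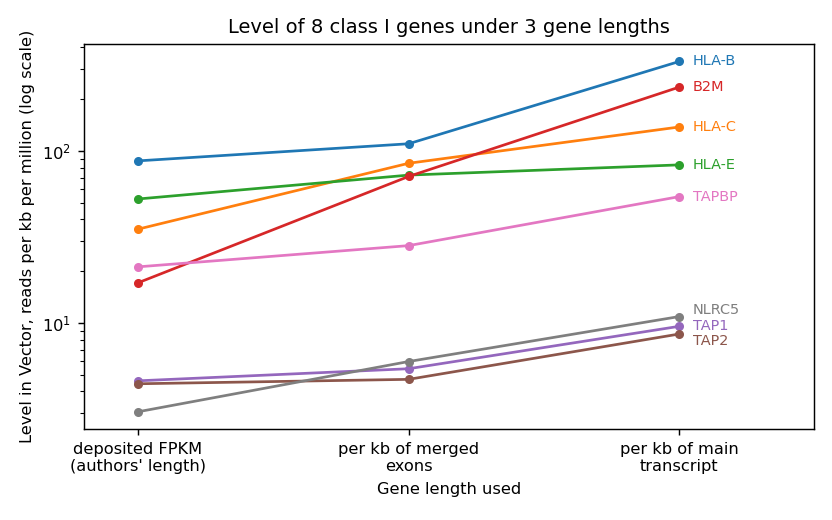
Level of the 8 genes with at least 10 reads in Vector (y axis, reads per kb per 1000000, log scale) under 3 gene lengths (x axis), where the deposited FPKM are scaled to counted reads and the others to TMM-scaled reads. B2M goes from 17.1 by deposited FPKM to 71.1 per kb of merged exons and 235 per kb of main transcript. Only by the last does it lie above all but HLA-B.

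Other genes of the pathway were taken as lists, whose counts are to be read beside the 8.46% and 8.18% of all tested genes that were higher and lower at 1.5-fold, and the 22.8% and 24.2% at any fold. Of 9 loading chaperones and aminopeptidases of the endoplasmic reticulum, 1 was higher and 2 were lower at 1.5-fold, with a median log2 fold change of -0.24. The chaperones calreticulin (CALR), with 20310 and 9084 reads, and calnexin (CANX), with 15284 and 10190, were lower by -1.40 and -0.82 on the log2 scale. PDIA3 (ERp57), the partner of tapasin, had 4632 and 3643 reads and a change of -0.58, just short of 1.5-fold. CALR, CANX and PDIA3 summed to 40226 and 22917 reads, a log2 fold change of -1.05, and they serve glycoproteins at large. The aminopeptidase ERAP2, which trims peptides, had 600 and 1079 reads and was higher by 0.61, and ERAP1, with 1711 and 2424 reads, was higher by 0.27.

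Of 6 genes of the immunoproteasome, which cuts peptides for class I, 1 was higher at 1.5-fold (PSMB9, above) and 0 were lower, with a median of -0.21. With 1 added to the FPKM, PSMB9 came to 0.36, under 1.5-fold. PSMB10, the remaining catalytic subunit, had 995 and 793 reads, a log2 fold change of -0.56. Among PSMB5, PSMB6 and PSMB7, the constitutive subunits these replace, 0 were higher and 0 lower at 1.5-fold and 2 were lower at any fold. Of 7 cytosolic peptidases, 0 passed 1.5-fold in either direction, 2 were higher and 2 lower at any fold, and the median was 0.04. Of the 3 catalytic subunits, PSMB9 was thus higher, PSMB10 lower and PSMB8 not past the test.

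Of 8 factors that act with NLRC5 on promoters, 1 was higher at 1.5-fold, 4 were higher and 0 lower at any fold, and the median was 0.23. RFXAP, a subunit of the RFX complex, had 372 and 673 reads and was higher by 0.62, and RFX5, its DNA-binding subunit, had 920 and 1359 reads and was higher by 0.33. Of 15 genes of interferon and NF-kB signalling, 1 was higher at 1.5-fold, STAT2 (748 and 1393 reads, log2 fold change 0.66), and 0 were lower, with a median of 0.04. The interferon response factor IRF1, with 428 and 476 reads, had a change of -0.08 that did not pass the test (adjusted p = 0.534, exact binomial read test).

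Of 16 tested interferon-stimulated genes, 2 were higher and 0 lower at 1.5-fold, XAF1 (861 and 2259 reads, log2 fold change 1.15) and WARS1 (1434 and 3289 reads, 0.96), and the median was -0.15. WARS1 is also the cytosolic tryptophanyl-tRNA synthetase. Of 9 tested genes that repress class I genes or lower class I protein, 0 were higher and 1 was lower at 1.5-fold, the ubiquitin ligase MARCHF9 (220 and 158 reads, log2 fold change -0.71, or -0.47 with 1 added to the FPKM), with 3 higher and 3 lower at any fold and a median of -0.12.

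**Figure D5:**
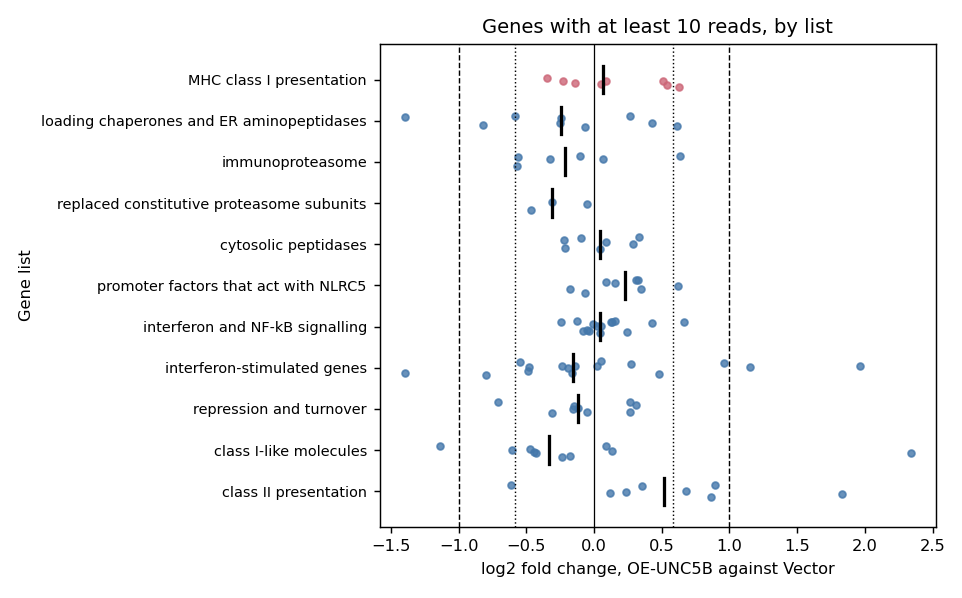
Log2 fold change (x axis) of each gene with at least 10 reads in the 9 class I genes (red) and in 10 further lists (blue), with 1 row per list. Black bars are list medians, which run from -0.33 to 0.52, and dotted and dashed lines are 1.5-fold and 2-fold. Points are single genes from 1 library per group, without error bars.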

How the data were processed

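RNA of Molm13 cells was measured in 1 Vector library and 1 library labelled OE-UNC5B. Per gene, the authors deposited read counts that were not normalized, and FPKM. The submitters' processing notes name bcl2fastq 2.19, HISAT2 2.0.4, StringTie 1.3.0 and GRCh38, with no roles. Which annotation release was used, and whether counting took account of strand, is not given in the sources used here.

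TMM scaling was done in edgeR 4.0.16 under R 4.3.3. Genes with a sum of 10 or more reads were tested with an exact binomial test (scipy 1.17.1) and Benjamini-Hochberg adjustment over all 15384 of them. Tested genes had a median of 269.5 reads in Vector and 316 in the other library. Calls needed an adjusted p under 0.05, alone or with a fold of 1.5 or 2. No test of the conditions could be fitted. The procedure was tested on simulated counts that hold counting error alone, so this says nothing about spread between libraries.

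The members and lists were chosen with earlier results of these data known. Named are UNC5B, the members, chosen pathway genes, up to 3 genes per list and direction past 1.5-fold with the most reads, and genes that overlap a member. Among the genes so named, 2 are not reported here. HLA-G, HLA-H, HLA-DOB, MICA and the marker genes were named after their values were seen. Lengths and shared stretches came from GENCODE 44, which held 49659 of the 50868 gene identifiers, and promoters from RefSeq.

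The alternatives tried were 2 reads added, size factors of DESeq2 1.42.0, library totals, no filter, at least 50 reads, the deposited FPKM with 0.1 or 1 added (minimum 1), calls by fold alone, an assumed coefficient of variation of 0.2 or 0.4 in edgeR's exact test, and protein-coding genes alone. Other gene lengths, ratios within a library and sums were added after the data were seen.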

Additional observations from a re-analysis of the deposited data

How the results depend on the processing

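The 8 tested genes kept their direction under the other scalings, with 2 reads added, with FPKM and with protein-coding genes alone. The filters and the assumed spreads leave a fold change as it is by construction. Apart from the constant added, the FPKM give the fold changes of library totals, so they are no separate check. The values lay for HLA-E between 0.63 and 0.68, for TAP1 between 0.47 and 0.56, for TAP2 between 0.49 and 0.59 and for TAPBP between -0.35 and -0.29 on the log2 scale. With library totals, 2 genes were higher at 1.5-fold, TAP2 being added, and HLA-B was past the read test at 0.0966, as it was with DESeq2 size factors (0.0548) and with protein-coding genes alone (0.0605). HLA-C (0.0848) was not past the test without a filter on low counts.

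An assumed spread between libraries ended each call of the class I genes, and those of the list genes given below. With a coefficient of variation of 0.2 or 0.4 in edgeR's exact test, 0 of the genes were called at 1.5-fold, and HLA-C (0.0848), HLA-E (0.63), B2M (-0.14), TAP1 (0.51), TAP2 (0.54), TAPBP (-0.35) and NLRC5 (-0.23) were no longer past the test (adjusted p of HLA-E 0.869 at 0.2). Of the other genes named as called, CALR (adjusted p = 0.0506 at 0.2), CANX, PDIA3, ERAP1, ERAP2, PSMB9, PSMB10, RFXAP, RFX5, STAT2, XAF1, WARS1, MARCHF9, PROCR, CD74 and LILRB2 were not past it at 0.2 either, and ULBP1 was past it at 0.2 but not at 0.4. Over all genes, 131 were then higher and 121 lower at either fold with 0.2, and 7 higher and 8 lower with 0.4. At 2-fold, 296 were lower with at least 50 reads and 281 with 0.1 added to the FPKM, and 165 were higher and 130 lower with 1 added (730 and 561 at 1.5-fold). By the fold alone, 793 were higher at 2-fold, and 1993 were higher and 1923 lower at 1.5-fold. The cause of these moves was not tested, beyond the smaller number of genes or the wider spread each setting has by construction.

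No paired analysis was possible because each group has 1 library, and for the same reason no replicate was left out. Summing the rows of a symbol gives no other value, as each of the 9 genes has 1 row.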

Other observations

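Class I-like molecules include ligands of the NK cell receptor NKG2D. Of 10 tested, 1 was higher at 1.5-fold, ULBP1, such a ligand, with 33 and 199 reads, the first from Vector (log2 fold change 2.34, interval 1.82 to 2.93, adjusted p = 1.39e-23, exact binomial read test). The endothelial protein C receptor PROCR was lower, with 131 and 70 reads (log2 fold change -1.14), and the median of the 10 was -0.33. With 1 added to the FPKM, ULBP1 came to 1.52, PROCR to -0.82 and the median to -0.12, and the median was -0.15 with 0.1 added. MICA, another NKG2D ligand, which lies 42.6 kb from HLA-B, had 272 and 231 reads and was lower by -0.47.

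Of the 14 genes of class II presentation, 5 had 0 reads in both libraries and 8 were tested, of which 0 passed 1.5-fold in either direction. The transactivator CIITA had 22 and 42 reads and HLA-DRA 13 and 29, and neither passed the test (adjusted p = 0.141 and 0.117, exact binomial read test). HLA-DOB, a chain of the HLA-DO modulator of class II loading, had 204 and 283 reads. The invariant chain CD74 was well expressed, with 3175 and 4788 reads, and was higher by 0.36 on the log2 scale. The median of the 8, 0.52, rests on low counts and was 0.24 with at least 50 reads.

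Of 11 receptors for class I, 7 had 0 reads in both libraries and 2 were tested. LILRB2, an inhibitory receptor of myeloid cells, had 24 and 51 reads (log2 fold change 0.84, adjusted p = 0.0432, exact binomial read test; 0.0611 without a filter on low counts). Of 8 heavy chain pseudogenes in the table, 1 was tested, HLA-H, with 19 and 32 reads (log2 fold change 0.50), which did not pass the test.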
